A study of Bos taurus with 10 samples.

Results

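The genes described here encode the enzymes of pyruvate oxidation, the citric acid cycle, fatty acid oxidation and the breakdown of branched-chain amino acids in the mitochondrial matrix of bovine embryos. The 46 members were chosen by symbol, with earlier results of these data known, so their counts beside all genes describe this set alone. All 46 were found as a single line each among the 28700 genes used. With a mean of at least 1 FPKM required over all libraries, 45 members were among the 11761 genes tested. The exception, ACADSB, an acyl-CoA dehydrogenase of isoleucine breakdown, stood between 0.0497 and 1.77 FPKM and was not tested.

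Poly(A) RNA was sequenced from bovine embryos that had received, as zygotes, small interfering RNA either against the oocyte's linker histone, H1FOO (knockdown, KD), or of a negative control sequence (NC). Each treatment has 2 libraries of the 8/16-cell stage, taken on day 4 from insemination, and 3 of morulae, taken on day 5.5. All groups, the controls included, were injected, and uninjected embryos were not analysed here. The labels do not say how many embryos a library holds, nor that replicates came from separate cultures, so the p-values reflect the spread among these libraries alone, which may be technical. The comparisons ask how the loss of H1FOO and the passage from the 8/16-cell stage to the morula bear on these transcripts.

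H1FOO, the target, was lower in KD than in NC libraries at both stages. Its level was 50.8 and 10.8 FPKM in the NC 8/16-cell libraries against 0.649 and 0.0736 in KD, and 0.294, 1.05 and 2.17 FPKM in the NC morula libraries against 0.0610, 0.191 and 0.251 in KD. Summed FPKM ran from 345464 to 669836 per library, and the members made up 0.244% to 0.494% of it. Read counts were not analysed here, so absolute depth is unknown; the steps of the lowest values put the relative depths between 0.712 and 1.44. Among the markers of other cells, the summed level of the 20 cumulus and granulosa genes was 76.0 to 88.2 FPKM in NC morulae and 69.4 to 144 FPKM in KD morulae, with FSHR at 0 in all libraries. At the 8/16-cell stage that sum was 99.7 to 107 FPKM in NC and 173 to 182 FPKM in KD embryos. SERPINE2 made up most of the sum in NC morulae, at up to 75.8 FPKM, against up to 45.9 FPKM in KD morulae, with overlap. The highest KD morula sum was that of replicate 3. There VIM, LUM and CYP11A1 were at 43.3, 23.4 and 15.4 FPKM, against at most 5.42, 6.89 and 3.77 FPKM in NC morulae. KD replicate 2 also exceeded NC for VIM (10.97) and CYP11A1 (7.90), while KD replicate 1 lay within the NC ranges of VIM, LUM and CYP11A1. Elsewhere in that list, all KD morulae exceeded NC for COL1A1 (4.21, 8.86 and 4.55 against at most 4.02 FPKM) and INHBA (2.37, 2.28 and 2.73 against at most 1.91 FPKM). The same held for COL3A1 and FOXL2, at lower levels. CYP19A1 was lower in all KD morulae (0.260, 0.143 and 0.0202 against at least 0.689 FPKM). The other lists were, in NC against KD morulae, 51.4 to 142 against 21.3 to 72.3 FPKM for the 5 trophectoderm genes and 586 to 830 against 404 to 702 FPKM for the 3 inner cell mass genes. They were 80.8 to 97.1 against 77.1 to 90.6 FPKM for the 12 oocyte genes, 6.37 to 9.81 against 5.30 to 11.6 FPKM for the 6 sperm and testis genes, and 109 to 160 against 137 to 244 FPKM for the 6 blood and immune genes, of which HBB was at 0. Of the trophectoderm genes, CDX2 was at 11.7, 6.13 and 9.68 FPKM in NC against 2.34, 1.88 and 1.23 FPKM in KD morulae. GATA3 was at 7.99, 2.24 and 2.48 FPKM in NC against 1.09, 0.975 and 0.583 FPKM in KD morulae. Neither overlapped, while GATA2, KRT8 and KRT18 did. NANOG, of the inner cell mass list, was higher in all KD morulae (25.4, 39.0 and 37.8 against 6.48, 14.4 and 18.8 FPKM). POU5F1, most of that sum, was at 673, 449 and 555 FPKM in NC against 531, 324 and 277 FPKM in KD morulae. The libraries of POU5F1 and SOX2 overlapped. HBA made up nearly all of the blood and immune sum, at 106 to 157 FPKM in NC and 133 to 239 FPKM in KD morulae.

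In the matrix, the pyruvate dehydrogenase complex turns pyruvate into acetyl-CoA, the citric acid cycle oxidises the acetyl group, and the oxidation of fatty acids and of leucine, isoleucine and valine feeds further acetyl-CoA, propionyl-CoA and electrons into the same routes. The pyruvate, alpha-ketoglutarate and branched-chain keto acid dehydrogenase complexes are built alike, each from a decarboxylase, a lipoyl-bearing acyltransferase core and a flavoprotein, DLD, that all of them share. Cleaving bovine embryos rely on pyruvate and other substrates of the mitochondria before glucose use rises around compaction.

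Levels of the members, given as FPKM and so comparable per length, ran from 0.918 FPKM for ACADSB and 1.33 FPKM for PCCA, the lowest of those tested, to 139 FPKM for PC as means over the 10 libraries. PC, which makes oxaloacetate from pyruvate, CS, which joins oxaloacetate and acetyl-CoA to citrate, GLUD1, which turns glutamate into alpha-ketoglutarate, ETFB, a subunit of the electron transfer flavoprotein, and MDH2, the malate dehydrogenase of the cycle, had the highest means. The means of PC and CS (139 and 138 FPKM) differed by less than the spread between libraries. At the low end stood PCCA and BCKDHB (2.83 FPKM), subunits of propionyl-CoA carboxylase and of the branched-chain keto acid decarboxylase, and DLAT, the acyltransferase core of the pyruvate complex (3.82 FPKM). Levels within a complex were far apart: DLD stood at 80.5 FPKM over the 10 libraries, above every other subunit of the 3 complexes named above. In NC morulae alone the mean of PDHB was higher, at 93.79 against 77.55 FPKM for DLD.

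In morulae, 5 of the 45 members fell in KD against NC embryos and 0 rose (limma on log2(FPKM + 1), adjusted p under 0.05 over all genes tested), where 0.553% of all genes fell and 0.145% rose. The 5 were DLAT, of pyruvate oxidation; SUCLG2, of the citric acid cycle; ACSS1 and ACAT1, which make and use acetyl-CoA; and ALDH6A1, of valine breakdown. The log2 difference was negative for 35 of the 45 members, against 57.9% of all genes, and the members' median was -0.38 against -0.08 for all genes. At an unadjusted p under 0.05, 20 members were lower and 0 higher, against 13.9% of all genes lower. KD libraries all lay below all NC libraries for 19 members, or 42.2%, against 15.3% of all genes, and above them for 1 member, or 2.22%, against 8.44%.

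Libraries with the same replicate number deviated together at this stage, so the comparison was also made with the replicate number as a block. There 15 members fell and 0 rose, with 8% of all genes falling and 3.89% rising. This count, too, rests on few libraries: it was 0 without the pair of morula libraries numbered 1, 6 without pair 2 and 0 without pair 3, where 0%, 2.21% and 0.0595% of all genes fell. None of the members that passed with the block thus did so without pair 1 or without pair 3. The 10 members that passed in the blocked fit alone were PDHA1, PDHB and PDHX of pyruvate oxidation, IDH3A and SUCLG1 of the cycle, ACADM and ETFA of fatty acid oxidation, and DBT, IVD and HIBCH of branched-chain breakdown. By role, the blocked fit called 4 of 5 genes of pyruvate oxidation, 3 of 12 of the cycle, 2 of 3 of the supply of acetyl-CoA and oxaloacetate, 2 of 10 of fatty acid oxidation, 4 of 12 of branched-chain and propionate breakdown, and 0 of 3 of the aldehyde, glutamate and aspartate enzymes.

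**Figure D1:**
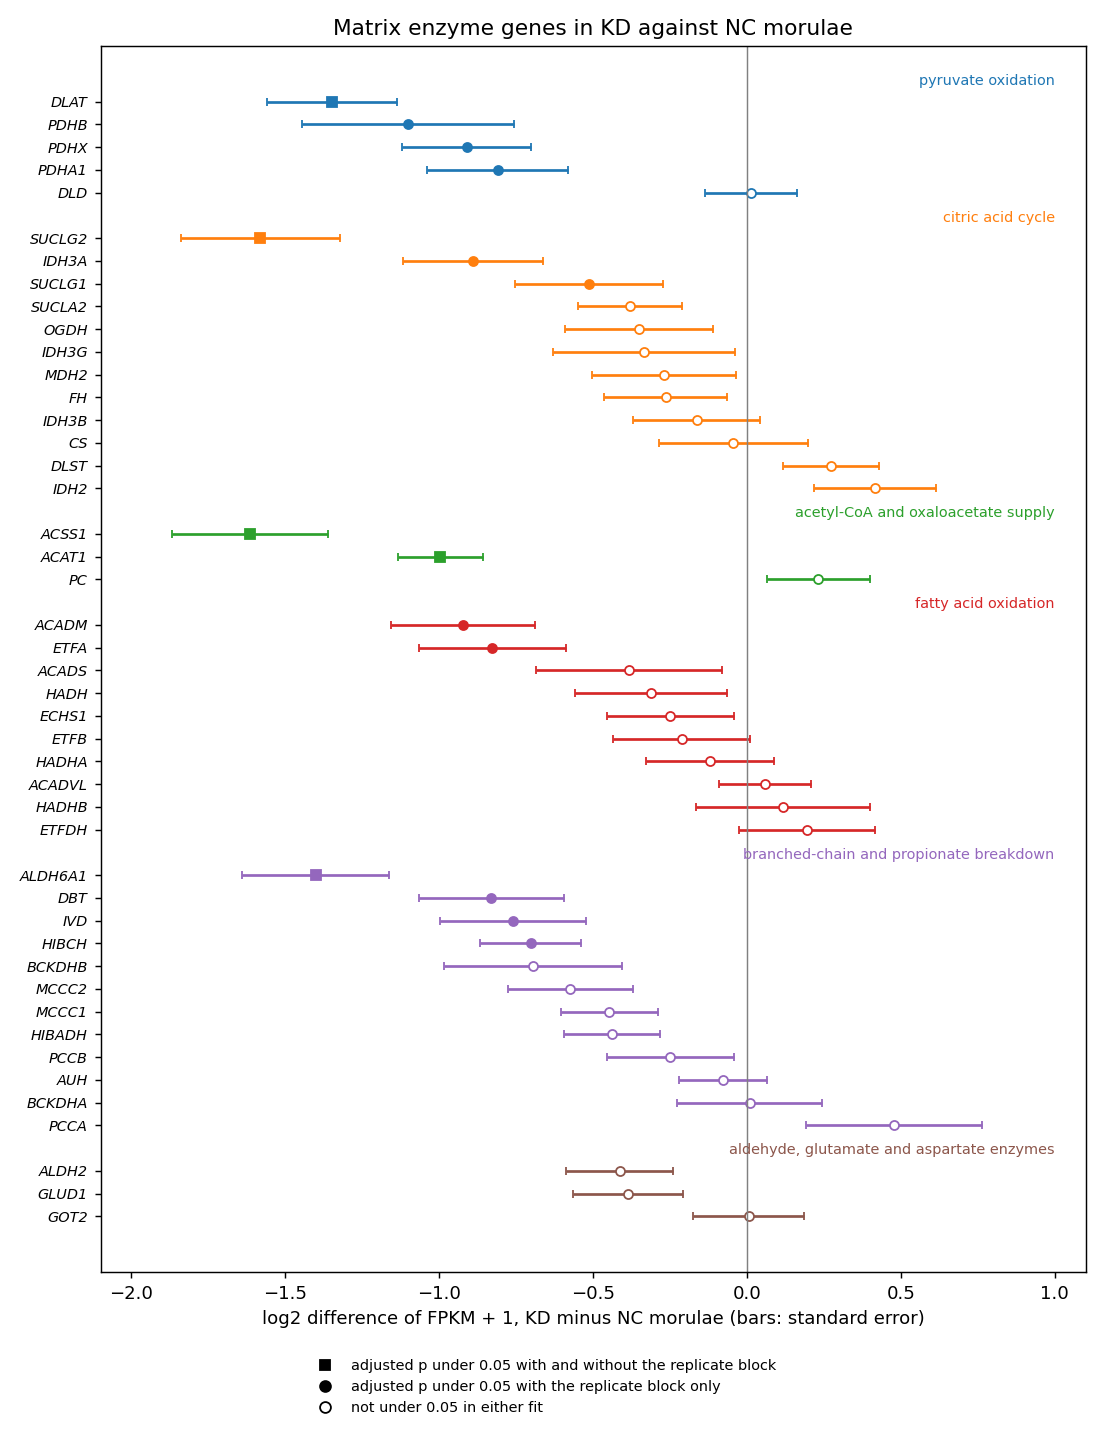
Log2 difference of FPKM + 1 between 3 KD and 3 NC morula libraries (x axis, with standard errors) for the 45 members tested, grouped by role. Squares mark the 5 members that fell with and without the replicate block, filled circles the 10 that fell only with it, and open circles the rest; DLD, CS, BCKDHA and GOT2 sit close to 0.

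Of the pyruvate dehydrogenase complex, 4 of 5 genes had lower means in KD morulae and negative log2 differences, which 57.9% of all genes had. The shared subunit did not follow them. DLAT, the acetyltransferase core, was at 7.45, 5.77 and 5.21 FPKM in the NC morulae, against 2.34, 1.78 and 1.32 in the KD morulae. Every KD library lay below every NC library, and the mean was 3.39-fold lower, with a log2 difference of -1.35 (SE 0.21, adjusted p = 0.0374). PDHX, which anchors DLD to that core, was at 13.6, 13.5 and 16.1 FPKM in the NC morulae, against 8.76, 8.54 and 4.84 in the KD morulae. Its libraries did not overlap either, and its log2 difference of -0.91 (SE 0.21, adjusted p = 0.0648) passed in the blocked fit alone (adjusted p = 0.0289).

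The decarboxylase of the complex is made of alpha and beta chains, encoded by PDHA1 and PDHB. PDHA1 was at 59.5, 45.7 and 40.0 FPKM in the NC morulae, against 38.0, 24.6 and 20.5 in the KD morulae, with a log2 difference of -0.81 (SE 0.23, adjusted p = 0.0940), and 0.00984 for the adjusted p with the block. PDHB was at 123, 83.1 and 75.0 FPKM in the NC morulae, against 75.4, 33.6 and 29.4 in the KD morulae. Here KD replicate 1 lay just above NC replicate 3, so the groups overlapped, and the log2 difference of -1.10 (SE 0.34, adjusted p = 0.114) passed with the block (adjusted p = 0.00773). DLD, in contrast, was at 67.1, 89.3 and 76.2 FPKM in the NC morulae, against 76.5, 77.3 and 79.7 in the KD morulae, with a log2 difference of 0.01 (SE 0.15, adjusted p = 0.966). The KD values of DLD all lay within the NC range.

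**Figure D2:**
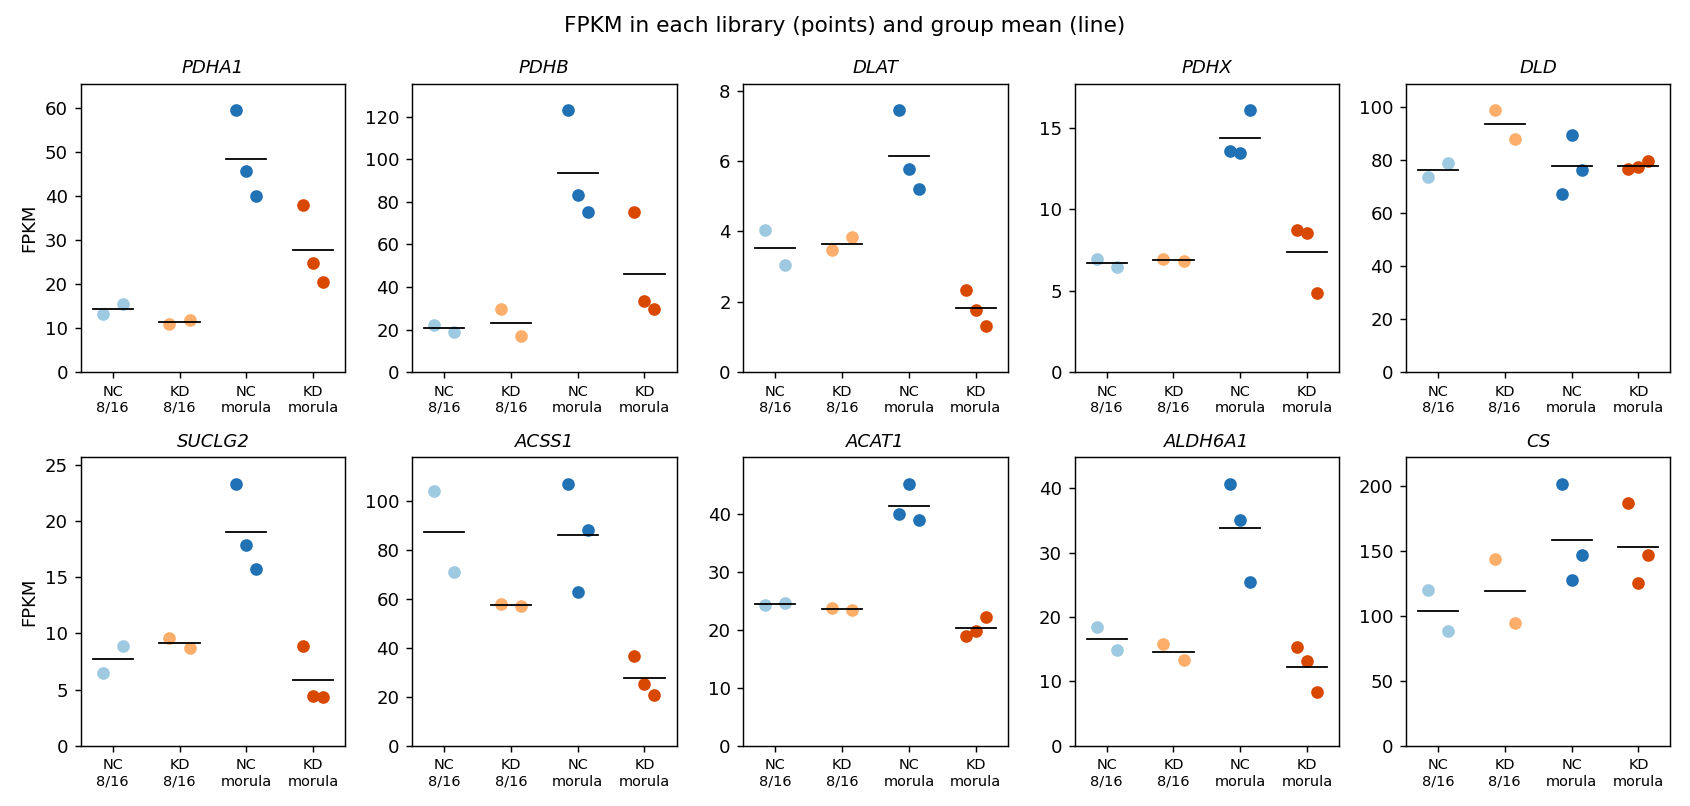
FPKM of 10 members (y axes, each from 0) in every library, as points, with the group mean as a line, for 8/16-cell embryos (n = 2 per treatment) and morulae (n = 3 per treatment). In DLAT, PDHX, SUCLG2, ACSS1, ACAT1, ALDH6A1 and PDHA1 the KD morula points lie below all NC morula points, while in DLD and CS they overlap them.

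In the citric acid cycle, 1 of 12 genes fell, where 0.553% of all genes did. Differences were negative for 10, against 57.9% of all genes, with a median of -0.30. SUCLG2, the beta subunit of the succinyl-CoA ligase that uses GDP, was at 23.3, 17.9 and 15.8 FPKM in the NC morulae, against 8.92, 4.39 and 4.37 in the KD morulae. Its highest KD library was below its lowest NC library; the mean was 3.22-fold lower, with a log2 difference of -1.58 (SE 0.26, adjusted p = 0.0377). SUCLG1, the alpha subunit that both forms of the ligase need, had a log2 difference of -0.51 (SE 0.24, adjusted p = 0.251) and overlapping libraries, and passed narrowly with the block (adjusted p = 0.0499). SUCLA2, the beta subunit that uses ADP, was at 67.0, 85.7 and 84.7 FPKM in the NC morulae, against 57.4, 63.9 and 59.6 in the KD morulae and did not pass (adjusted p = 0.226, 0.0984 with the block).

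IDH3A, the catalytic subunit of the NAD-dependent isocitrate dehydrogenase, was at 137, 79.9 and 123 FPKM in the NC morulae, against 77.7, 53.4 and 50.1 in the KD morulae. The KD libraries lay below the NC libraries, and its log2 difference of -0.89 (SE 0.23, adjusted p = 0.0733) passed with the block (adjusted p = 0.0110). Its regulatory partners had log2 differences of -0.16 (SE 0.21) for IDH3B and -0.33 (SE 0.30) for IDH3G, neither of which passed in either fit. IDH2, the NADP-dependent enzyme, was the 1 member whose KD libraries (67.6, 77.4 and 56.5 FPKM) all lay above its NC libraries (52.4, 47.1 and 49.8 FPKM); its log2 difference of 0.42 (SE 0.20, adjusted p = 0.257) did not pass.

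The remaining genes of the cycle did not pass in either fit. CS had a log2 difference of -0.04 (SE 0.24), with its sign differing between settings, MDH2 of -0.27 (SE 0.23), and FH, the fumarase, of -0.26 (SE 0.20). In the alpha-ketoglutarate dehydrogenase complex, the decarboxylase OGDH had a log2 difference of -0.35 (SE 0.24) and the succinyltransferase core DLST one of 0.27 (SE 0.16). Failing the test does not show that these genes did not differ.

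Of the 3 genes that supply acetyl-CoA and oxaloacetate, 2 fell, ACSS1 and ACAT1, where 0.553% of all genes did. ACSS1, the mitochondrial acetyl-CoA synthetase that activates acetate, was at 107, 62.8 and 88.3 FPKM in the NC morulae, against 36.8, 25.2 and 20.7 in the KD morulae. No library overlapped, and the mean was 3.12-fold lower, with a log2 difference of -1.61 (SE 0.25, adjusted p = 0.0374). ACAT1, the mitochondrial acetoacetyl-CoA thiolase of ketone and isoleucine metabolism, was at 40.0, 45.3 and 39.0 FPKM in the NC morulae, against 18.9, 19.8 and 22.2 in the KD morulae. Both groups of ACAT1 values were tight, 41.4 ± 3.37 and 20.3 ± 1.69 FPKM (SD, n = 3 each), and its log2 difference of -1.0 (SE 0.14, adjusted p = 0.0278) had the smallest p among the members. PC had a log2 difference of 0.23 (SE 0.17, adjusted p = 0.446) and overlapping libraries.

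No gene of fatty acid oxidation passed without the block. Differences were negative for 7 of 10, against 57.9% of all genes, with a median of -0.23. ACADM, the medium-chain acyl-CoA dehydrogenase, was at 12.2, 13.1 and 10.1 FPKM in the NC morulae, against 6.38, 5.90 and 4.96 in the KD morulae. Its libraries did not overlap, and its log2 difference of -0.92 (SE 0.23, adjusted p = 0.0724) passed with the block (adjusted p = 0.0131). ETFA, the alpha subunit of the flavoprotein that takes electrons from these dehydrogenases, was at 22.9, 14.7 and 30.3 FPKM in the NC morulae, against 13.1, 11.9 and 10.6 in the KD morulae. It was likewise lower in all KD libraries, with a log2 difference of -0.83 (SE 0.24, adjusted p = 0.0964) and 0.0450 for the adjusted p with the block. The other 8 did not pass in either fit, with log2 differences from -0.38 for ACADS, the short-chain dehydrogenase, to 0.20 for ETFDH, which hands the electrons to ubiquinone. They include HADH (-0.31) and ECHS1 (-0.25), the hydroxyacyl-CoA dehydrogenase and enoyl-CoA hydratase of shorter chains, and ETFB (-0.21). Also among them were the long-chain enzymes HADHA (-0.12) and HADHB (0.12) and the very long-chain dehydrogenase ACADVL (0.06).

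In branched-chain and propionate breakdown, 1 of 12 genes fell, where 0.553% of all genes did, and the KD libraries lay below the NC libraries for 8 of the 12, where they did so for 15.3% of all genes. ALDH6A1, the methylmalonate semialdehyde dehydrogenase of valine breakdown, was at 40.7, 35.1 and 25.5 FPKM in the NC morulae, against 15.4, 13.2 and 8.32 in the KD morulae. The mean was 2.75-fold lower, with a log2 difference of -1.40 (SE 0.24, adjusted p = 0.0383) and no overlap. HIBCH, which frees hydroxyisobutyrate from CoA in the same pathway, was at 25.1, 26.0 and 24.6 FPKM in the NC morulae, against 17.1, 12.6 and 16.1 in the KD morulae, with a log2 difference of -0.70 (SE 0.16, adjusted p = 0.0655) that passed with the block (adjusted p = 0.0301). HIBADH, which oxidises that hydroxyisobutyrate, had a log2 difference of -0.44 (SE 0.16) and did not pass in either fit.

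IVD, the isovaleryl-CoA dehydrogenase of leucine breakdown, was at 31.9, 24.2 and 21.0 FPKM in the NC morulae, against 17.9, 15.5 and 11.1 in the KD morulae and passed with the block (log2 difference -0.76 (SE 0.24), adjusted p = 0.113, 0.0163 with the block). MCCC1 and MCCC2, the subunits of methylcrotonyl-CoA carboxylase that act next, had log2 differences of -0.45 (SE 0.16) and -0.57 (SE 0.20); no KD library of either reached the NC range, and neither passed. AUH, the hydratase that follows them, had a log2 difference of -0.08 (SE 0.14). Of propionyl-CoA carboxylase, PCCA had a log2 difference of 0.48 (SE 0.29) and PCCB of -0.25 (SE 0.21), with overlapping libraries.

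In the branched-chain keto acid dehydrogenase complex, DBT, the transacylase core, was at 14.2, 13.5 and 15.5 FPKM in the NC morulae, against 11.1, 6.92 and 5.74 in the KD morulae, and its log2 difference of -0.83 (SE 0.24, adjusted p = 0.0938) passed with the block (adjusted p = 0.0455). BCKDHB had a log2 difference of -0.69 (SE 0.29) and did not pass, and that of its partner BCKDHA was 0.01 (SE 0.23). So among the cores of the 3 complexes, DLAT fell, DBT fell with the block, and DLST had a positive difference that did not pass.

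The last group held no gene that passed in either fit. ALDH2, which oxidises acetaldehyde and other aldehydes, was lower in all KD libraries (25.2, 24.1 and 19.2 against 35.5, 26.9 and 29.8 FPKM), with a log2 difference of -0.41 (SE 0.17). GLUD1 had a log2 difference of -0.39 (SE 0.18) with 1 overlapping pair of libraries. GOT2, the aspartate aminotransferase of the malate-aspartate shuttle, had one of 0.01 (SE 0.18).

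Ratios of partner genes within a library do not depend on how libraries are scaled. Of 10 pairs, the ratio in KD morulae lay above that in NC morulae for 2 and below it for 5, without overlap, and overlapped for 3. No share over other gene pairs was taken, and IDH3A is in 2 of the 5, so these counts describe the listed pairs alone. SUCLA2 to SUCLG2, the ADP form against the GDP form, was 2.87, 4.80 and 5.37 in the NC morulae, against 6.44, 14.6 and 13.6 in the KD morulae. At the 8/16-cell stage the same ratio was 18.8 and 9.98 in the NC embryos, against 10.4 and 10.7 in the KD embryos, so the NC morulae stood lowest of the 4 groups. BCKDHA to BCKDHB, the other ratio that was higher in KD, was 1.98, 2.64 and 3.18 in the NC morulae, against 5.16, 5.12 and 4.51 in the KD morulae.

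IDH3A to IDH3B, the catalytic against a regulatory subunit, was 1.55, 1.35 and 1.52 in the NC morulae, against 1.02, 0.875 and 0.778 in the KD morulae. The 8/16-cell libraries of both treatments lay above every KD morula here, at 1.66 and 1.68 in the NC embryos, against 1.28 and 1.79 in the KD embryos. ETFA to ETFB was 0.0472 and 0.0600 in the NC 8/16-cell embryos, 0.0592 and 0.0580 in those with KD, 0.186, 0.167 and 0.187 in NC morulae and 0.127, 0.126 and 0.0911 in KD morulae, which thus stood between the 8/16-cell embryos and the NC morulae. DLAT to PDHX was 0.549, 0.428 and 0.323 in the NC morulae, against 0.267, 0.208 and 0.273 in the KD morulae. IDH3A to IDH3G and HADHA to HADHB were the other ratios below the NC range, while PDHA1 to PDHB, PCCA to PCCB and MCCC1 to MCCC2 overlapped. These ratios are a description of the libraries, with no test.

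**Figure D3:**
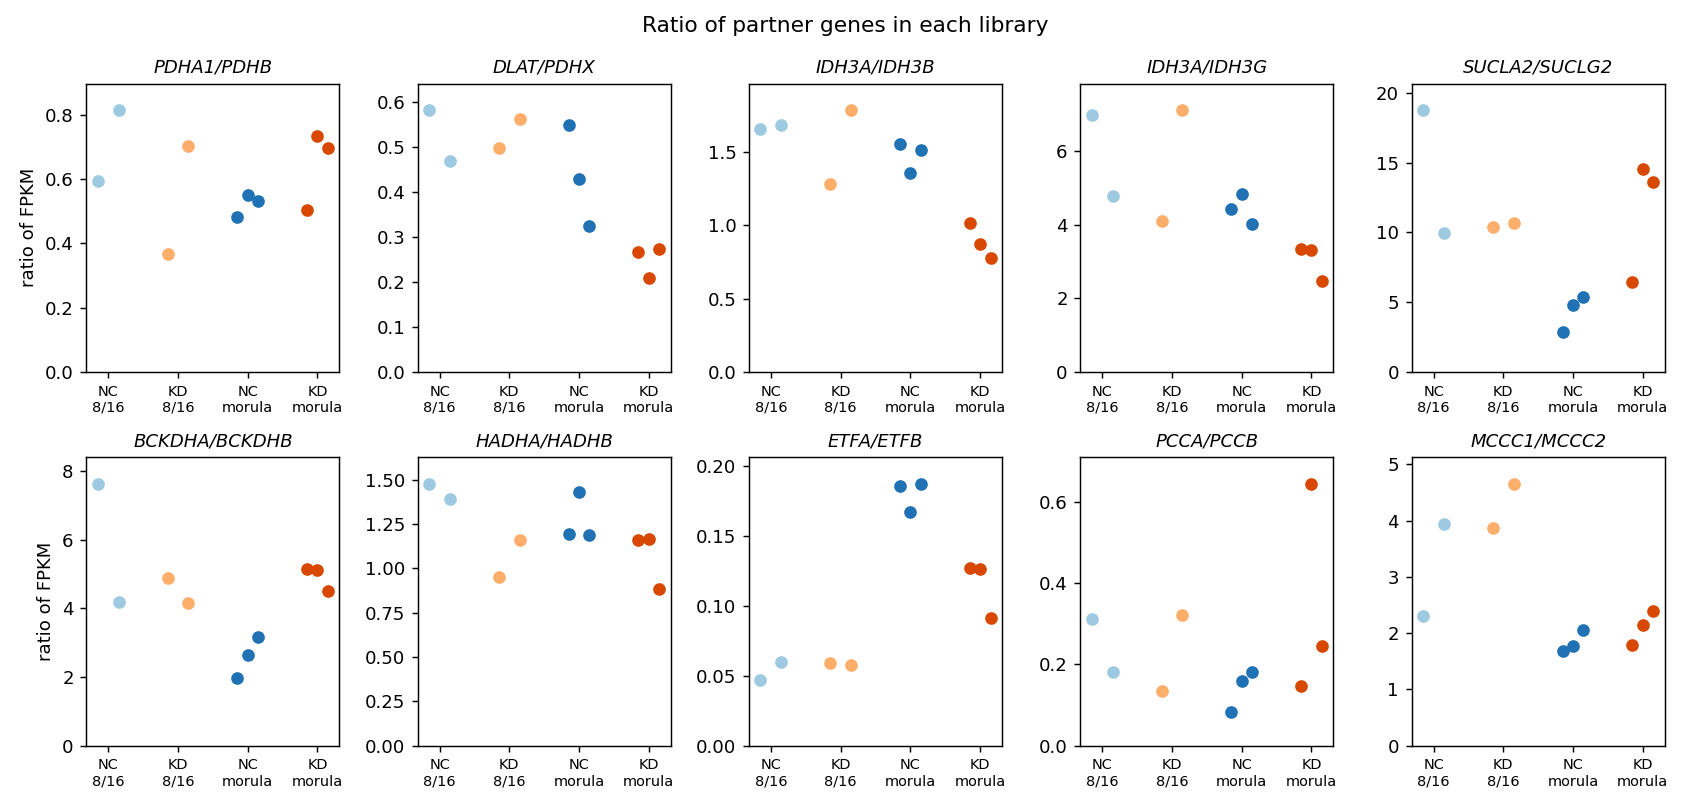
Ratio of the FPKM of partner genes (y axes, from 0) in each of the 10 libraries, 1 panel per pair and 1 point per library. In KD morulae SUCLA2/SUCLG2 and BCKDHA/BCKDHB lie above all NC morulae, and DLAT/PDHX, both IDH3A ratios, HADHA/HADHB and ETFA/ETFB lie below them.

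The morula calls rest on few libraries. Leaving out 1 library gave 0 calls among the members in 8 of 10 cases (each of the 4 8/16-cell libraries, NC morula replicates 1 and 3, KD morula replicates 2 and 3), 2 without NC morula replicate 2 and 11 without KD morula replicate 1, where 0.281% and 2.79% of all genes fell. In these 10 cases, 15 to 27 members were lower at an unadjusted p under 0.05, against 8.10% to 16.3% of all genes. NC morula replicate 1 was the highest of its group for 28 members (62.2%, against 39.5% of all genes), and NC replicate 2 the lowest for 31 (68.9%, against 40.6%). RN18S1, the 18S ribosomal RNA, was at 2704, 2983 and 8611 FPKM in NC and at 9053, 8553 and 11581 FPKM in KD morulae. With its log level as a covariate 0 members passed, 9 were lower and 1 higher at an unadjusted p under 0.05, where 5.77% of all genes were lower and 4.79% higher, and the members' median was -0.40. In bulk RNA, fewer cells of a type and less transcript per cell cannot be told apart.

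At the 8/16-cell stage, 0 of 45 members passed in KD against NC embryos, where 0.017% of all genes did, and 0 members had an unadjusted p under 0.05, against 4.37% of all genes. The log2 difference was positive for 30 members and negative for 15, against 47.2% of all genes, and the median was 0.15 against 0.01 for all genes. When libraries were rescaled to an equal sum of FPKM the median became -0.22, and that of all genes moved to -0.32, so no direction can be given for the group. KD replicate 1 had the largest sum at this stage, 669836 FPKM, against 449649 in KD replicate 2 and 430373 and 400788 in NC. KD libraries lay above NC libraries for 13 members, or 28.9%, against 19.3% of all genes, and below for 8, or 17.8%, against 13.9%; with 2 libraries per group, such separation is common.

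The 8 members with the smallest p at this stage, which did not pass, were of both signs. HADHB, the beta subunit of the trifunctional protein of long-chain oxidation, was at 5.39 and 6.59 FPKM in the NC embryos, against 13.7 and 7.17 in the KD embryos, a log2 difference of 0.66 (SE 0.35). Without KD replicate 1 it was 0.23, and without KD replicate 2 it was 1.08. GLUD1 was at 72.8 and 77.4 FPKM in the NC embryos, against 96.8 and 103 in the KD embryos, a log2 difference of 0.41 (SE 0.22). ACSS1, which fell in KD morulae, was at 104 and 71.0 FPKM in the NC embryos, against 58.1 and 57.3 in the KD embryos already here, a log2 difference of -0.57 (SE 0.31). The KD libraries of ACSS1 were close to each other and below both NC libraries; without NC replicate 1 the difference was -0.30.

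Among the other 5, DBT was at 10.1 and 6.57 FPKM in the NC embryos, against 5.06 and 6.0 in the KD embryos (-0.49 (SE 0.29) on the log2 scale), and the difference was -0.22 without NC replicate 1 and -0.77 without NC replicate 2. GOT2 was at 73.6 and 72.0 FPKM in the NC embryos, against 50.2 and 62.9 in the KD embryos, a log2 difference of -0.37 (SE 0.22) that was -0.21 without KD replicate 1. Both lay lower in KD without overlap, within differences that the test did not set apart from the spread. AUH was at 17.6 and 18.9 against 23.3 and 22.2 FPKM (0.30 (SE 0.17)), DLD at 73.4 and 78.9 against 98.9 and 88.1 FPKM (0.29 (SE 0.18)) and DLST at 33.6 and 32.9 against 40.7 and 41.4 FPKM (0.29 (SE 0.19)), and the sign of these 3 turned under the equal sum. Of the genes that fell in morulae, DLAT was at 4.04 and 3.03 FPKM in the NC embryos, against 3.46 and 3.83 in the KD embryos and ACAT1 at 24.3 and 24.6 FPKM in the NC embryos, against 23.8 and 23.5 in the KD embryos.

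The difference between the 2 effects of KD was tested as an interaction, and 0 of 45 members passed, where 0.017% of all genes were lower. It was negative for 39 members, against 58.5% of all genes, with a median of -0.45 against -0.10, and at an unadjusted p under 0.05 13 members were lower and 0 higher, against 6.64% of all genes lower. With libraries rescaled to an equal sum the members' median was -0.025 and that of all genes 0.29. SUCLG2 had the smallest p, with an interaction of -1.82 (SE 0.41, adjusted p = 0.435). In the blocked fit it was the 1 member that passed (adjusted p = 0.0499), where 0.196% of all genes were lower; leaving out any of the 3 morula pairs ended that call. Without the block, the KD effect in morulae was thus not shown to differ from that at the 8/16-cell stage for any member. Of the other 4 genes that fell in morulae, the interaction was -0.95 for ACAT1, -1.39 for DLAT, -1.23 for ALDH6A1 and -1.05 for ACSS1. Their adjusted p ran from 0.435 to 0.498.

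Between the 8/16-cell stage and the morula, 17 of the 45 members rose in NC embryos and 2 fell, where 12.6% of all genes rose and 18.2% fell. The median log2 difference was 0.62 for the members against -0.07 for all genes, and all morula libraries lay above all 8/16-cell libraries for 27 members, or 60%, against 24.3% of all genes, and below for 6, or 13.3%, against 32.6%. The rises took in 3 of 5 genes of pyruvate oxidation, 4 of 12 of the cycle, 1 of 3 of the acetyl-CoA group, 3 of 10 of fatty acid oxidation, 4 of 12 of branched-chain and propionate breakdown and 2 of 3 of the last group. For 81 symbols with several lines, each 8/16-cell library held 1 value per symbol, while the morula libraries did so for only 6. The columns of the stages were thus built in different ways, and that and the stage cannot be told apart.

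PDHB rose most, from 22.2 and 19.0 FPKM in 8/16-cell embryos to 123, 83.1 and 75.0 FPKM in morulae, a log2 difference of 2.10 (SE 0.38, adjusted p = 0.00320). Its partner PDHA1 rose from 13.2 and 15.5 FPKM to 59.5, 45.7 and 40.0 FPKM, a log2 difference of 1.67 (SE 0.26, adjusted p = 0.00159). The means of these chains of the pyruvate decarboxylase were 4.55-fold and 3.38-fold higher, while DLD had a log2 difference of 0.02 (SE 0.17). ETFA rose from 5.65 and 5.99 FPKM to 22.9, 14.7 and 30.3 FPKM, a log2 difference of 1.74 (SE 0.27, adjusted p = 0.00159), and ETFB did not pass (0.14 (SE 0.25)). ALDH2 rose from 11.1 and 9.97 FPKM to 35.5, 26.9 and 29.8 FPKM, a log2 difference of 1.45 (SE 0.19, adjusted p = 0.000868). SUCLG1 rose from 15.9 and 14.1 FPKM to 51.7, 29.2 and 38.7 FPKM, a log2 difference of 1.32 (SE 0.27, adjusted p = 0.00523).

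The other 12 rises ran from 0.74 for ACAT1 to 1.25 for HIBCH on the log2 scale and included SUCLG2 (1.2), ALDH6A1 (0.96), MDH2, GLUD1, IVD, PCCB, PDHX, HADHA, HADHB and IDH3B. PC fell from 206 and 177 FPKM to 104, 92.8 and 102 FPKM, a log2 difference of -0.93 (SE 0.19, adjusted p = 0.00489). GOT2 fell from 73.6 and 72.0 FPKM to 55.5, 43.4 and 45.3 FPKM, a log2 difference of -0.60 (SE 0.20, adjusted p = 0.0454). In both, every morula library lay below both 8/16-cell libraries. Without NC 8/16-cell replicate 1 the calls dropped to 9, and without replicate 2 to 11, where 12.0% and 14.1% of all genes were called.

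In KD embryos 2 members rose and 6 fell between the same stages, where 5.22% of all genes rose and 14.8% fell, and the median was close to 0, against -0.18 for all genes. The rises were of PDHA1, from 10.8 and 11.9 FPKM to 38.0, 24.6 and 20.5 FPKM (log2 difference of 1.17 (SE 0.26, adjusted p = 0.0129)), and of ALDH2, from 12.9 and 10.2 FPKM to 25.2, 24.1 and 19.2 FPKM (log2 difference of 0.92 (SE 0.19, adjusted p = 0.0110)). The falls were of ACSS1 (-1.08 (SE 0.28)), HADH (-0.92 (SE 0.28)), MCCC1 (-0.76 (SE 0.18)), DLAT (-0.74 (SE 0.24)), SUCLA2 (-0.66 (SE 0.19)) and PC (-0.61 (SE 0.19)). Morula libraries lay above for 9 members, or 20%, against 16.6% of all genes, and below for 14, or 31.1%, against 36.7%. The split of these calls depends on scaling: with an equal sum of FPKM 11 rose and 0 fell, where 9.11% of all genes rose and 2.19% fell. With quantile normalization 5 rose and 2 fell, where 9.53% of all genes rose and 8.73% fell, and an equal median gave the same counts beside 8.69% and 7.74%. Leaving out any 1 KD morula library left 4 calls, and leaving out either NC 8/16-cell library 5. Most calls also ended when either KD 8/16-cell library was left out, which leaves 1 library in that group. No share of all genes is given for these fits, so their counts bear only on how stable the calls are.

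The stage changes of NC and of KD embryos share no library, and their difference is the interaction given above, which no member passed without the block. Side by side, SUCLG2 had 1.2 in NC and -0.62 in KD embryos on the log2 scale, DLAT 0.65 and -0.74, ALDH6A1 0.96 and -0.26, ACAT1 0.74 and -0.21, and ACSS1 -0.03 and -1.08. PDHB, with 2.10 and 0.89, and ETFA, with 1.74 and 0.58, were positive in both treatments, with gaps larger than that of ACAT1. The members with the smallest gap were DLST, with -0.17 and -0.19, and ETFDH, with -0.06 and -0.12. The NC stage change and the morula comparison of KD with NC do share the NC morula libraries.

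**Figure D4:**
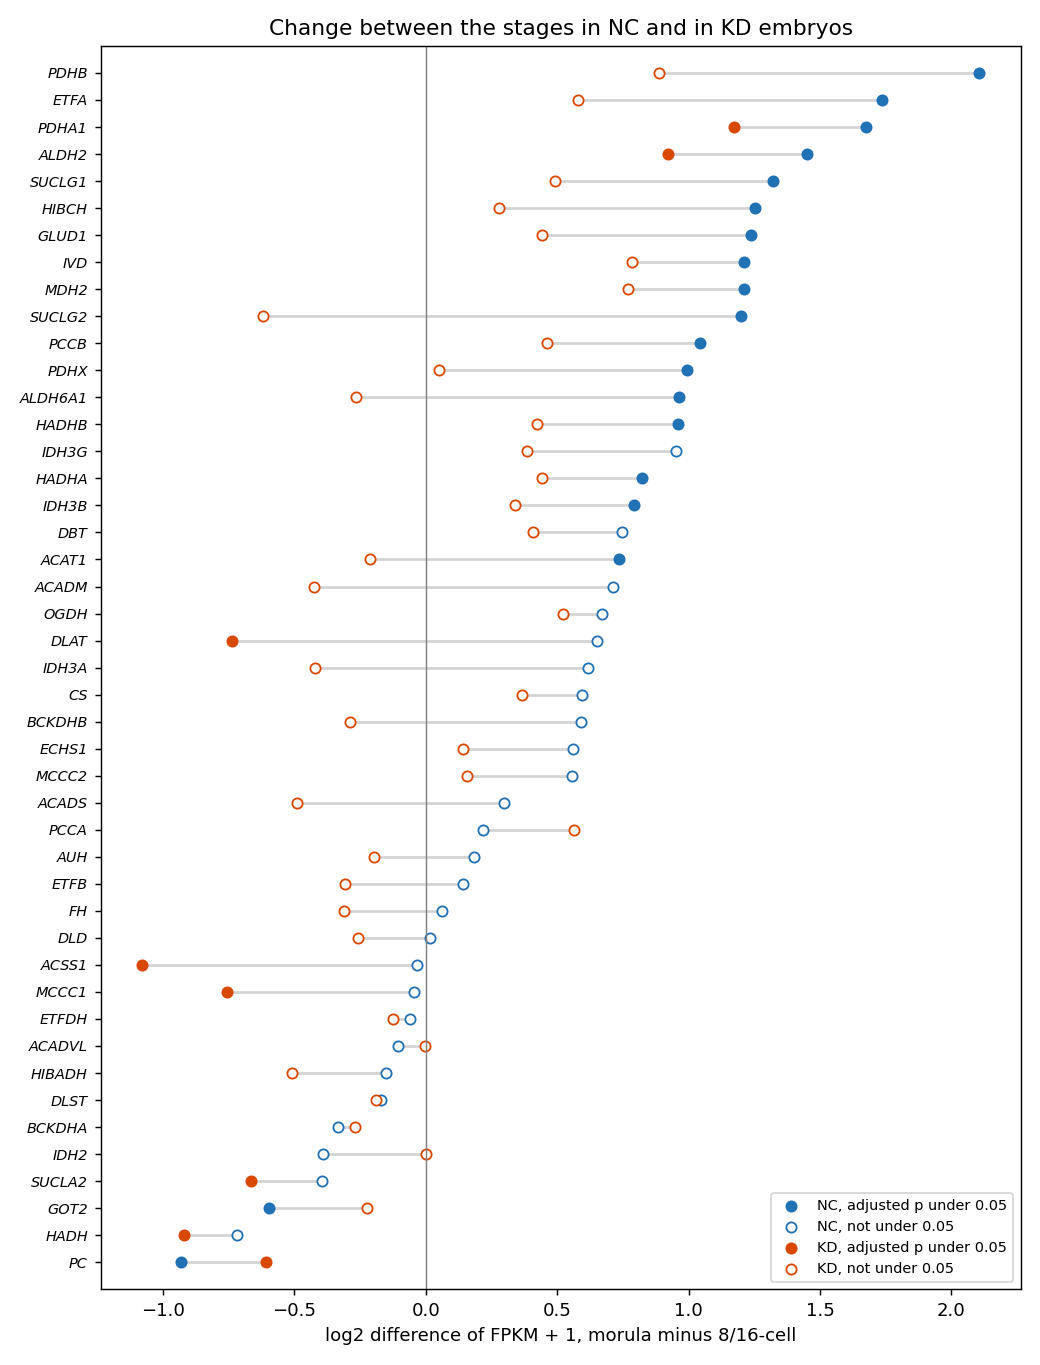
Log2 difference of FPKM + 1 between morulae and 8/16-cell embryos (x axis) for the 45 members, in NC (blue) and KD (orange) embryos, ordered by the NC value; filled points passed. The KD point lies left of the NC point for most members, farthest for SUCLG2, DLAT and ALDH6A1, and the 2 filled KD points on the right are PDHA1 and ALDH2.

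Of 80 further genes of these pathways in the table, 67 were tested, and none passed in KD against NC morulae, with 3 higher and 17 lower at an unadjusted p under 0.05, where 7.3% of all genes were higher and 13.9% lower, and a median of -0.26. The genes named next had the smallest p there and did not pass without the block. MPC1, a subunit of the carrier that brings pyruvate into the matrix, had a mean of 40.2 FPKM in NC and 14.3 FPKM in KD morulae, with a log2 difference of -1.40 (SE 0.30, adjusted p = 0.0617) and 0.00290 for the adjusted p with the block. SDHD, a membrane anchor of succinate dehydrogenase, had a log2 difference of -0.92 (SE 0.20), and IDH1, the cytosolic isocitrate dehydrogenase, one of -1.09 (SE 0.24). LIAS, the lipoate synthase that the keto acid dehydrogenase complexes depend on, had one of -0.65 (SE 0.18).

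GPT2, the mitochondrial alanine aminotransferase, had a log2 difference of -1.44 (SE 0.37), GCDH, of lysine breakdown, -1.2 (SE 0.26), ALDH5A1, of GABA breakdown, -1.28 (SE 0.36), and PPM1K, the phosphatase that activates the branched-chain complex, -0.67 (SE 0.17). With the block 13 of the 67 fell, all 8 of these among them, and 2 rose, where 8% of all genes fell and 3.89% rose. The 2 were ACSS2, the acetyl-CoA synthetase outside mitochondria (1.31, mean 1.13 FPKM in the NC morulae and 4.86 in the KD morulae), and SLC25A12, an aspartate-glutamate carrier (0.73). At the 8/16-cell stage none of the 67 passed, with 3 higher and 0 lower at an unadjusted p under 0.05, where 2.53% of all genes were higher.

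Between the NC stages 23 of the 67 rose and 6 fell, where 12.6% of all genes rose and 18.2% fell. The smallest p belonged to SLC25A12, which fell (-2.72), ALDH5A1 (2.52), the cytosolic malate dehydrogenase MDH1 (1.72) and GCDH (1.66), which rose, PDK1, a kinase that inactivates the pyruvate dehydrogenase complex, which fell (-1.27), and the thiolase ACAA1 (1.36), ALDH4A1 (1.14) and SDHA (1.05), which rose. Between the KD stages 2 rose, PPARGC1B (0.84) and CPT2 (0.71), and 7 fell, of which SLC25A12 (-2.14) and PDK1 (-1.63) had the smallest p; of all genes, 5.22% rose and 14.8% fell.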

How the data were processed

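Per the labels' protocols, a Picopure kit gave the RNA, oligo(dT) beads its messenger RNA and an NEBNext Ultra kit with PCR the libraries; strand is not stated, so antisense reads cannot be separated. The submitters' processing notes name Trimmomatic, HISAT2, featureCounts and Cufflinks and the builds ARS-UCD1.2 and bosTau9; versions and roles are not given in the sources used here. The deposited values are FPKM, scaled by the authors to gene length and to the fragments of the library, so each change is relative to the library's other transcripts. Of 39911 lines, the 11211 of 81 repeated symbols were left out; 0 sample columns were unused.

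On log2(FPKM + 1), which understates changes of low genes, limma 3.58.1 in R 4.3.3 (limma-trend, 6 residual and 4.63 prior degrees of freedom) fitted 4 group means to all 10 libraries for 11761 genes whose mean reached 1 FPKM. Tests were two-sided, with Benjamini-Hochberg adjustment over these genes and a threshold of 0.05. Only the morula comparison of KD with NC, without the block, was tried on simulated data, whose noise was independent between libraries. The blocked fit was not tried in this way. The members, further pathway genes and marker lists (cumulus and granulosa, oocyte, sperm and testis, blood and immune, trophectoderm, inner cell mass) were chosen with earlier results of these data known.

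Between KD and NC libraries of one number, deviations from the group mean had r = 0.370, 0.325 and 0.312 across genes in the 3 morula pairs and 0.0558 in both 8/16-cell pairs. With 2 libraries per group the 2 pairs of the 8/16-cell stage must give the same r, so it is 1 value. The 3 morula values are not independent of each other either, because deviations from a group mean cancel within the group. The labels do not say what a number shares. From these same values the morula numbers were taken as pairs, and the replicate number was added as a block. The blocked fit held a block at the 8/16-cell stage too, so it had fewer residual degrees of freedom than the main fit. Values per library are given for members that passed in KD against NC, the 8 of smallest p at each stage, the 5 largest rises and falls between NC stages and described pairs; up to 8 further pathway genes per comparison are named by smallest p. Other values per library were added after they were seen. All 46 symbols matched RefSeq names (ARS-UCD2.0, names only). Alternatives covered the pseudocount, filters, scaling, moderation, covariates, libraries fitted and repeated symbols.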

Additional observations from a re-analysis of the deposited data

How the results depend on the processing

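Beside the main fit, 25 alternatives were run, including those given above, and 10 of them left out 1 library each. The equal sum without the MIR2887 genes and the blocked fits without 1 morula pair were chosen after seeing the data. In KD against NC morulae, 36 of 45 members kept the sign of their difference in all alternatives, and the members' median stayed between -0.54 and -0.25. The number of members called there was 15 with the replicate block, 1 with no filter on low values, 0 with an equal sum of FPKM, 0 with RN18S1 as a covariate, 0 with the stage fitted alone, 1 with an equal sum without the MIR2887 genes, and with the replicate block 0 without pair 1, 6 without pair 2 and 0 without pair 3; leaving out 1 library gave 0 to 11. Over all genes, limma called 3 with the equal sum, 0 with RN18S1 and 0 with the stage alone. A smaller number of genes tested, samples or degrees of freedom is part of some of these settings; the cause was not tested. With the equal sum, the median over the genes tested shifted by more than 0.1 in KD against NC 8/16-cell embryos (to -0.32), in the interaction (to 0.29) and between the KD stages (to 0.21). It reversed the members' median at the 8/16-cell stage (-0.22; 0.01 to 0.25 when leaving out 1 library) and the signs of AUH (-0.078), DLD (-0.11) and DLST (-0.10) there, and brought the members' median in the interaction to -0.025 (-0.62 to -0.35 when leaving out 1 library). The replicate block added 1 call in the interaction. Between the KD stages the members' median turned to 0.18 with quantile normalization, 0.45 with the equal sum, 0.20 with the equal median and 0.18 with the equal sum without MIR2887 (-0.10 to 0.06 when leaving out 1 library). Calls there were 4 with no filter, 5 with RN18S1 and 4 with the equal sum without MIR2887, and 0 to 8 when leaving out 1 library. Between the NC stages leaving out 1 library gave 9 to 22 calls. These counts of calls between stages are given without the share of all genes called, so they bear only on how stable the calls are. No paired analysis was possible for the changes between stages because a replicate number marks libraries within a stage. The block changed no other call at the 8/16-cell stage. Read depth is unknown, so counting error, which bears most on low members such as PCCA, DLAT and BCKDHB, was not measured.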
